A study of Rattus norvegicus with 12 samples.

Results

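The genes described here move calcium and magnesium across the cells of the distal nephron and were chosen by name. The list held 10 genes: Trpv5, Calb1, S100g, Atp2b1, Slc8a1, Trpm6, Trpm7, Egf, Cnnm2 and Casr. Of these, 9 were found among the 13151 genes of the deposited table, and Trpm6 was not analysed here. All 9 passed the filter on low values (at least 1 in 4 or more rats), as did 11633 genes in total. The renal cortex of male rats aged 32 weeks was sequenced as RNA in 3 groups of 4. Zucker lean (ZL) rats were the controls. Zucker fatty (ZF) rats, which lack a functional leptin receptor in every cell from birth, were the obese model. The ZF-SGLT2i rats were ZF rats fed canagliflozin, an inhibitor of the renal glucose transporter SGLT2. They received 10 mg/kg/day in the food for 8 weeks from the age of 24 weeks. Their food intake per body weight, not their total intake, was matched to that of untreated ZF rats. One ZF and ZL cohort of the study had earlier kidney biopsies, and the labels do not give whether the sequenced rats belonged to it. Between 8824980 and 12210257 reads per rat fell on genes. Values are normalised read counts (CPM, reads scaled to the library size), given as mean ± SD over 4 rats, and they are not per length, so levels are compared between rats and not between genes.

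In the late distal tubule, calcium enters the cell from the urine through the apical channel Trpv5, is buffered by the calbindins, and leaves to the blood through the pump Atp2b1 and the sodium-calcium exchanger Slc8a1. In the distal convoluted tubule, magnesium enters through channels formed by Trpm6 and Trpm7. The hormone Egf, made as a membrane precursor in the thick ascending limb and the distal convoluted tubule, stimulates this entry, Cnnm2 is needed for magnesium handling at the basolateral side, and the receptor Casr senses blood calcium in the thick ascending limb.

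Trpv5 rose and Egf fell in ZF compared with ZL rats, and none of the 9 genes passed the test between ZF-SGLT2i and ZF rats. In limma fits on log2(CPM + 1), a gene was called at a Benjamini-Hochberg adjusted P under 0.05 over all genes tested. For ZF against ZL, 2 of 9 genes were called, where 18.8% of all genes tested were. For ZF-SGLT2i against ZF, 0 of 9 were called by limma, edgeR and DESeq2 alike, 1 gene (S100g) had an unadjusted limma P under 0.05, and 3.15% of all genes tested were called. Between ZF-SGLT2i and ZL, the same 2 genes were called as between ZF and ZL, against 27.4% of all genes tested. The share called was thus near that of all genes in each comparison that called any. The median log2 fold change over the 9 genes was 0.04, 0.13 and 0.18 in the 3 comparisons, and that of all genes tested was −0.01, 0.01 and −0.00. The comparisons share groups, so a ZF or ZL value enters more than 1 of them. The share of reads on ribosomal RNA genes ran up to 12.0% in ZL and in ZF and lay between 11.5% and 15.2% in the ZF-SGLT2i rats, and its part in these results was not tested.

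**Figure D1:**
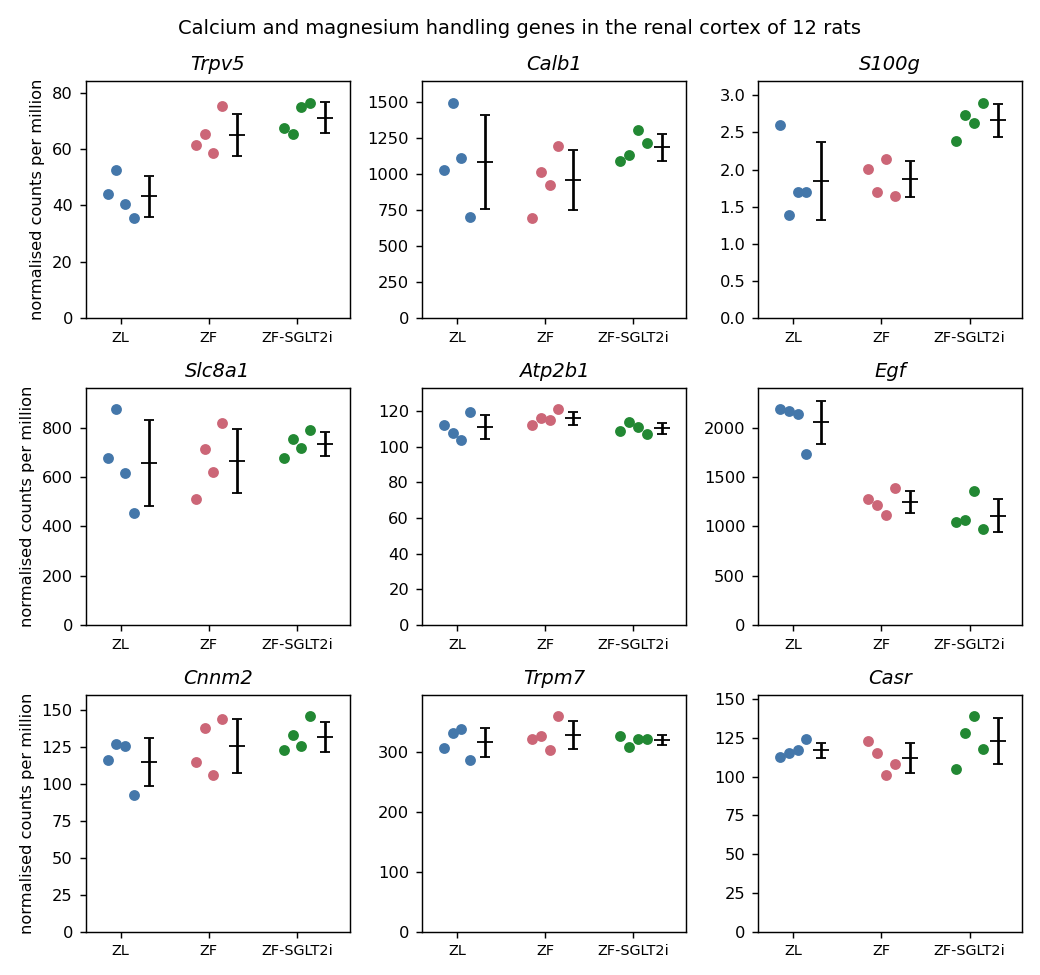
Normalised read counts (CPM, y axis, from 0) of 9 calcium and magnesium handling genes in each rat, by group (x axis). Points are single rats in the order of their numbers, and bars are mean ± SD (n = 4). The ZF and ZF-SGLT2i rats lie above all ZL rats for Trpv5 and below all ZL rats for Egf.

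**Figure D2:**
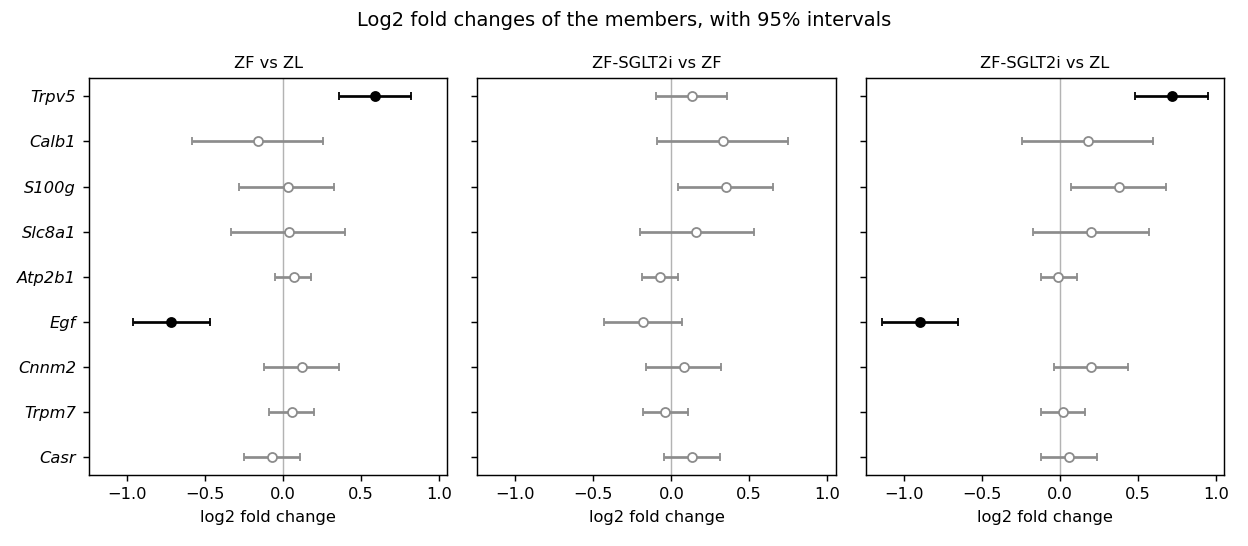
Log2 fold changes on the log2(CPM + 1) scale (x axis) with 95% intervals from limma for the 9 genes in the 3 comparisons. Filled points passed an adjusted P under 0.05, which Trpv5 and Egf did in ZF vs ZL and in ZF-SGLT2i vs ZL.

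Because Trpv5 and its paralog Trpv6, a second apical calcium channel, both had higher values in ZF compared with ZL, their promoters are shown beside that of Egf, which fell. The sequences are from RefSeq on the rat assembly GRCr8, 300 bases around the gene start, read 5′ to 3′ on the minus strand, on which all 3 genes lie. They span chr4:71529333-71529632 for Trpv5, chr4:71489618-71489917 for Trpv6 and chr2:220976248-220976547 for Egf. Capitals mark matches to 6-base motifs of the kind that nuclear receptors such as the vitamin D receptor bind (the letters AGGTCA, their near copy AGTTCA, a variant spelled GGGTCA, or the further variant GGTTCA, each searched for on both strands).
Trpv5: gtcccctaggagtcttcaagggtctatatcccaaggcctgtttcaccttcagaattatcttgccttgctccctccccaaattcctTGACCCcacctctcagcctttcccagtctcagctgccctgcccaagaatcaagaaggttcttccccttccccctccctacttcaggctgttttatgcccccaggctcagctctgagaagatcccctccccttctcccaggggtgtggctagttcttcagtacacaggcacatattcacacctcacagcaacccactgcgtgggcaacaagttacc
Trpv6: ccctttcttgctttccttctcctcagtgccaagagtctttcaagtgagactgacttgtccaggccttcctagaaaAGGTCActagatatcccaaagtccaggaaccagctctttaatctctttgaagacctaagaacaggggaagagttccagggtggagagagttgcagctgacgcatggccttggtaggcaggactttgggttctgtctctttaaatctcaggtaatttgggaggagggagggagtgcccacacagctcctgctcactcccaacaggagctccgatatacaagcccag
Egf: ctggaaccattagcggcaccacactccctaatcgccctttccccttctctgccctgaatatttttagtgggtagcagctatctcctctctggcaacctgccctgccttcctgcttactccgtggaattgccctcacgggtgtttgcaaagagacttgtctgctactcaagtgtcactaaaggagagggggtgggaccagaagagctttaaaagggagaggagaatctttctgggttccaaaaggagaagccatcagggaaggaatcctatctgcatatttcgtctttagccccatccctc
Trpv5 had 1 match, GGGTCA on the opposite strand, at position −165 from the start, and Trpv6 had 1, AGGTCA, at position −175. Egf had none. Such a match is common, since 44.4% of all 33469 promoters of this length in the table held at least 1. None of the 3 held a direct repeat of the motif with 3 bases between, which 0.0986% of all promoters held, or the letters TATAAA, which 14.2% held.

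Trpv5, the apical entry channel, had values of 44.1, 52.5, 40.5 and 35.6 CPM in the ZL rats (43.2 ± 7.13, 357 to 606 reads). In ZF rats they were 61.3, 65.4, 58.5 and 75.4 (65.1 ± 7.43). Every ZF rat thus lay above every ZL rat. The log2 fold change was 0.59 (standard error 0.11, 95% interval 0.36 to 0.82, adjusted P = 0.0031 by limma), a 1.5-fold rise. The two-sided exact permutation P was 0.0286, the smallest that 4 rats against 4 allow. Groups that did not overlap were seen for Trpv5 and Egf among the 9 genes, and for 19.0% of all genes tested between ZF and ZL. The ZF-SGLT2i rats had 67.6, 65.3, 75.0 and 76.5 CPM (71.1 ± 5.46), which overlapped the ZF range. Against ZF, the log2 fold change was 0.13 (95% interval −0.10 to 0.36, adjusted P = 0.60 by limma), and that against ZL was 0.72 (adjusted P = 0.00047). Between ZF-SGLT2i and ZL, the groups did not overlap for 28.0% of all genes tested, Trpv5 and Egf again being the ones among the 9.

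Trpv6 was near the lower limit of the values tested, with 5 to 33 reads per rat over the 12 rats. The ZL rats had 1.97, 1.39, 0.567 and 1.34 CPM, the ZF rats 2.97, 2.31, 2.22 and 2.30, and the ZF-SGLT2i rats 2.67, 2.83, 3.32 and 3.34. Every ZF rat exceeded every ZL rat, with ZF rat 2 the highest of its group. Its log2 fold change between ZF and ZL was 0.61 (adjusted P = 0.029 by limma). It was not called in 8 of 21 alternatives (adjusted P from 0.051 to 0.084 in those 8), which included leaving out ZL rat 3 (0.062) or ZF rat 2 (0.084), 3 (0.058) or 5 (0.051), and its log2 fold change ran from 0.43 to 0.95 over all 21. Against ZF, the ZF-SGLT2i rats differed by 0.23 (95% interval −0.15 to 0.61). Both genes lie next to each other on the same strand in GRCr8 and are similar in sequence, so reads could be shared between them and the value of Trpv6 is uncertain.

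Calb1 encodes calbindin-D28k, the main cytosolic calcium buffer of these cells. Its values were 1025, 1496, 1112 and 704 CPM in ZL (1084 ± 326), 695, 1017, 924 and 1194 in ZF (957 ± 207), and 1094, 1131, 1305 and 1213 in the ZF-SGLT2i rats (1186 ± 94.0). The groups overlapped, and the lowest rats of ZL and ZF were at a like level. The log2 fold change of Calb1 was −0.16 between ZF and ZL (95% interval −0.58 to 0.26, adjusted P = 0.63 by limma) and 0.33 between ZF-SGLT2i and ZF (95% interval −0.09 to 0.75, adjusted P = 0.41). A rise as large as that of Trpv5 lies outside the first interval and inside the second.

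S100g encodes calbindin-D9k, the smaller buffer, and was low, at 15 to 29 reads per ZL rat. The ZL rats had 2.60, 1.39, 1.70 and 1.70 CPM, the ZF rats 2.01, 1.70, 2.14 and 1.64, and the ZF-SGLT2i rats 2.38, 2.73, 2.62 and 2.90. All ZF-SGLT2i rats were above all ZF rats, but ZL rat 1 lay within the ZF-SGLT2i range. The log2 fold change between ZF-SGLT2i and ZF was 0.35 (95% interval 0.04 to 0.65, unadjusted P = 0.028, adjusted P = 0.22 by limma). S100g was the 1 gene of the 9 whose groups did not overlap there, as was the case for 11.2% of all genes tested. Between ZF-SGLT2i and ZL the log2 fold change was 0.38 (adjusted P = 0.065 by limma), and without ZL rat 1 the adjusted P was 0.022. The value for ZF against ZL was 0.03.

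For calcium exit, Slc8a1, the sodium-calcium exchanger, was 677, 874, 617 and 456 CPM in ZL (656 ± 173), 511, 714, 619 and 818 in ZF (665 ± 131) and 678, 753, 716 and 791 in the ZF-SGLT2i rats (735 ± 48.5). The 3 ranges overlapped. On the log2 scale, Slc8a1 differed by 0.04 between ZF and ZL (95% interval −0.33 to 0.40) and by 0.16 between ZF-SGLT2i and ZF (95% interval −0.20 to 0.53). Atp2b1, a plasma membrane calcium pump present in most cells of the cortex, kept to small ranges. Its level was 104 to 119.7 CPM in ZL rats, 112 to 121 in ZF rats and 107 to 114 in the ZF-SGLT2i rats. On the log2 scale it differed by 0.07 between ZF and ZL (95% interval −0.05 to 0.18) and by −0.07 between ZF-SGLT2i and ZF (95% interval −0.19 to 0.04), intervals that leave out a change as large as that of Trpv5.

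Calb1 and Slc8a1 varied together from rat to rat. In ZL, rat 2 was the highest and rat 4 the lowest for both genes, and in ZF both followed the order rat 5, 3, 4, 2. The SD of log2 Calb1 within a group was 0.45 in ZL rats, 0.33 in ZF rats and 0.11 in the ZF-SGLT2i rats, and that of Slc8a1 was 0.39, 0.29 and 0.10. The log2 ratio of both had an SD of 0.12, 0.06 and 0.13, so the ratio varied less than either gene in ZL and ZF but not in ZF-SGLT2i rats. The ratio of Calb1 to Slc8a1 was 1.52 to 1.80 in ZL rats, 1.36 to 1.49 in ZF rats and 1.50 to 1.82 in the ZF-SGLT2i rats. The ratio of Calb1 to Trpv5 was 24.7 ± 4.03 (19.7 to 28.5) in ZL rats, 14.6 ± 2.19 (11.4 to 15.8) in ZF rats and 16.7 ± 0.785 (15.9 to 17.4) in the ZF-SGLT2i rats, so the ZL rats did not overlap the others. These ratios are a description and were not tested.

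ZL rats 2 and 4 and ZF rat 5 were also the highest or lowest of their groups for other genes of the late distal tubule, and ZF rat 2, the lowest ZF rat for Calb1 and Slc8a1, was below its group mean for 10 of 12 markers and the lowest for 2. Of 12 markers of connecting tubule and principal cells (Aqp2, Scnn1g, Hsd11b2 and others), 12 were below the group mean in ZL rat 4, which was the lowest ZL rat for 10, and ZL rat 2 was the highest for 10. ZF rat 4 was the lowest of its group for 10 and ZF rat 5 the highest for 9. The summed level of the list was 2563, 3087, 2524 and 2120.1 CPM in ZL rats, 2756, 3221, 2447 and 3461 in ZF, and 3300.5, 3669, 3615 and 4052 in the ZF-SGLT2i rats. Hsd11b2, which inactivates glucocorticoids, made up the largest part of this sum, without correction for length, and no marker was at 0 in a whole group. In whole cortex, fewer cells of a type and less RNA per cell cannot be told apart.

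**Figure D3:**
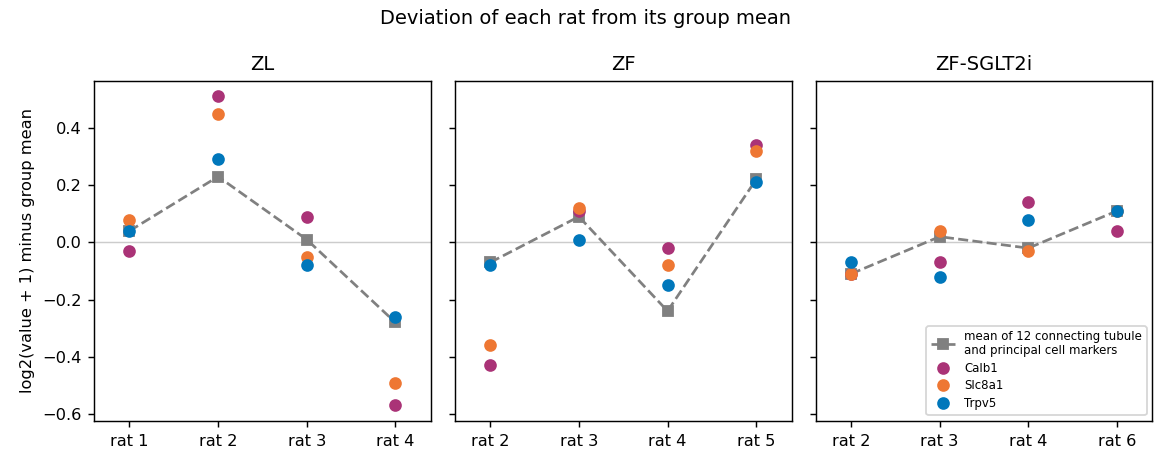
Deviation of each rat from the mean of its group on the log2(CPM + 1) scale (y axis) for Calb1, Slc8a1 and Trpv5 (points) and for the mean of 12 connecting tubule and principal cell markers (grey squares, joined only to guide the eye). ZL rat 4 lay below its group mean by all 4 measures, and ZL rat 2 and ZF rat 5 lay above.

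Of these 12 markers, 9 were higher and 1 was called in ZF against ZL, with a median log2 fold change of 0.23. The called gene was Scnn1g, a subunit of the epithelial sodium channel. Between ZF-SGLT2i and ZF, 12 of 12 were higher, 1 was called (Aqp2, the vasopressin-regulated water channel) and the median was 0.28. The call of Aqp2 was just under the threshold (adjusted P = 0.05 by limma after rounding). Between ZF-SGLT2i and ZL, 9 of 12 were called higher and the median was 0.57. Of all genes tested, 18.8%, 3.15% and 27.4% were called in these comparisons, in that order. Trpv5 was therefore also set against the mean log2 level of the 12 markers in the same rat. This difference was −1.42 ± 0.06 in ZL (−1.51 to −1.36), −1.06 ± 0.07 in ZF (−1.13 to −0.96) and −1.23 ± 0.10 in the ZF-SGLT2i rats (−1.37 to −1.13). The ZF rats stayed above all ZL rats, while the ZL and ZF-SGLT2i ranges just overlapped. Calb1 against the same markers was 3.16 ± 0.24, 2.78 ± 0.25 and 2.81 ± 0.12. Slc8a1 was 2.45 ± 0.18, 2.26 ± 0.20 and 2.12 ± 0.01 on this scale. S100g was −5.38 ± 0.35 in ZL, −5.58 ± 0.32 in ZF and −5.53 ± 0.01 in the ZF-SGLT2i rats, so the last groups were at a like level. The part of the marker levels in the rise of Trpv5 or in the values of S100g was not tested.

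Among the magnesium genes, Egf was the one called. Its values were 2188, 2171, 2139 and 1735 CPM in ZL (2058 ± 217), 1275, 1218, 1117 and 1389 in ZF (1249.8 ± 113) and 1040.4, 1068, 1355 and 973 in the ZF-SGLT2i rats (1109 ± 169). Every ZL rat, even the low ZL rat 4, was above all rats of both other groups. The log2 fold change between ZF and ZL was −0.72 (standard error 0.12, 95% interval −0.96 to −0.47, adjusted P = 0.0014 by limma, two-sided exact permutation P = 0.0286), and ZF rats held 0.608 times the ZL level. Under quantile normalization Egf fell by 0.45 on the log2 scale and was still called. The log2 fold change was −0.18 between ZF-SGLT2i and ZF (95% interval −0.43 to 0.07, adjusted P = 0.46), with overlapping groups, and that between ZF-SGLT2i and ZL was −0.90 (adjusted P = 0.00015).

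Markers of the segments that make Egf went in both directions between ZF and ZL, where 18.8% of all genes tested were called. Of 10 markers of the thick ascending limb, 6 were higher and 4 lower in the ZF rats. Among them, 2 were called lower, Cldn10, a claudin of the tight junction, and Ppp1r1a, a phosphatase inhibitor. Their median log2 fold change was 0.03. Their summed level was 5070.4, 4169.8, 4418 and 6367 CPM in ZL rats, 6112, 4351, 4556 and 4375 in ZF rats and 3472, 4192, 3954 and 3672 in the ZF-SGLT2i rats. Umod, uromodulin, made up the largest part of the sum, at 2881 ± 819, 2966 ± 735 and 1856 ± 215 CPM. ZL rat 4, the lowest ZL rat for Egf, had the highest sum. Of 8 markers of the distal convoluted tubule, 7 had higher and 1 lower mean log2 values in ZF, and 1 was called lower (Fxyd2), with a median of 0.04. Their sum, in which the kinase gene Wnk1 had the largest part, was 4578, 5662, 5334 and 3778 CPM in ZL rats, 4703, 5874, 4449 and 6389.5 in ZF rats and 6444, 6635, 6636 and 7077 in the ZF-SGLT2i rats. Egf minus the mean log2 level of the thick ascending limb markers was 3.97 ± 0.28 in ZL (3.57 to 4.17), 3.33 ± 0.13 in ZF (3.19 to 3.50) and 3.25 ± 0.19 in the ZF-SGLT2i rats. Minus the distal convoluted tubule markers it was 3.37 ± 0.09, 2.61 ± 0.15 and 2.12 ± 0.21. The ZL rats did not overlap the ZF rats on either scale. The ZF-SGLT2i rats (1.88 to 2.38) lay below all ZF rats (2.48 to 2.79) against the distal convoluted tubule markers. Against the thick ascending limb markers these groups overlapped. The part of the marker levels in this was not tested.

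**Figure D4:**
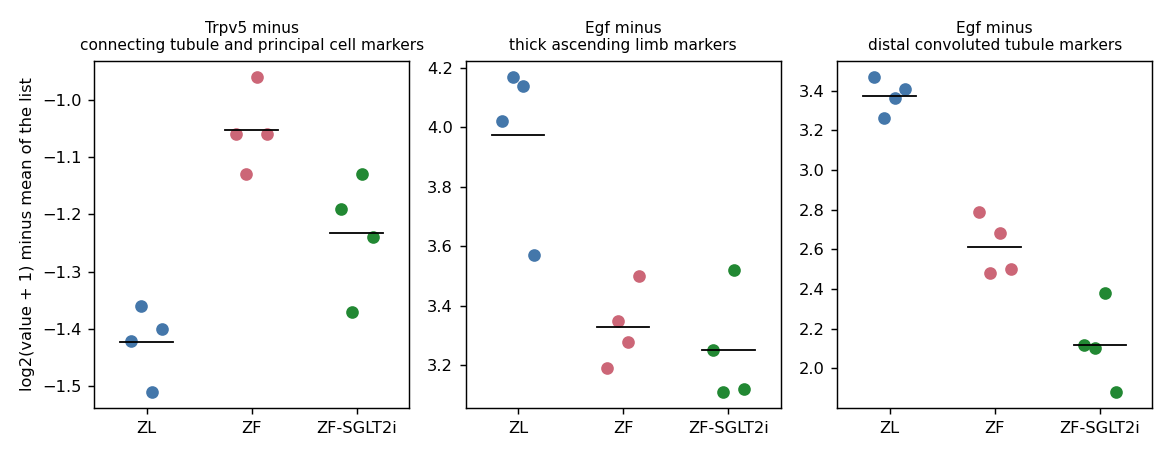
Log2(CPM + 1) of Trpv5 or Egf minus the mean log2(CPM + 1) of a segment's markers in the same rat (y axes, not from 0), by group. Points are single rats and lines group means. All ZF rats lie above the ZL rats for Trpv5 and below them for Egf against both lists.

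The channel kinase gene Trpm7, expressed in most cells, stayed within narrow ranges of 287 to 338 CPM in ZL rats, 304 to 359.6 in ZF rats and 309 to 327 in the ZF-SGLT2i rats. On the log2 scale, Trpm7 differed by 0.06 between ZF and ZL (95% interval −0.09 to 0.20) and by −0.04 between ZF-SGLT2i and ZF (95% interval −0.18 to 0.11). Cnnm2 was 116, 127, 126 and 92.6 CPM in ZL rats, 115, 138, 106 and 144 in ZF rats and 123, 133, 126 and 146 in the ZF-SGLT2i rats. ZL rat 4 was again the lowest ZL rat, and the ranges overlapped. For Cnnm2, the log2 fold changes were 0.12 (95% interval −0.12 to 0.36) and 0.08 (95% interval −0.16 to 0.32). Casr, the calcium sensor, was 113 to 124 CPM in ZL rats, 101 to 123 in ZF rats and 105 to 139 in the ZF-SGLT2i rats, with log2 fold changes of −0.07 (95% interval −0.25 to 0.11) and 0.13 (95% interval −0.05 to 0.31). None of these 3 genes was called in any comparison.

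The other genes of calcium and magnesium transport and of the EGF receptor system came from lists of 76 genes, of which 69 were tested. Between ZF and ZL, 15 (21.7%) were called, 8 higher and 7 lower, beside the 18.8% of all genes. This count was 9 without ZL rat 1, 7 without ZF rat 3 and 6 without ZF rat 5, and 6 to 17 over all fits that leave out 1 rat, where 1384 to 2453 of all genes tested were called, beside 2185 with all rats. Between ZF-SGLT2i and ZF, 7 (10.1%) were called, 3 higher and 4 lower, beside 3.15%. Without ZF rat 2 or 4 or without ZF-SGLT2i rat 3 it was 4, and over all fits without 1 rat 4 to 9, where 176 to 569 genes were called, beside 366 with all rats. Between ZF-SGLT2i and ZL, 28 (40.6%) were called, beside 27.4%. The median log2 fold change of the 69 genes was −0.00, 0.02 and 0.02. Of the 15 calls between ZF and ZL, 5 held in every alternative (Cyp24a1, Pthlh, Anxa2, Fxyd2 and Shc1), and of the 7 between ZF-SGLT2i and ZF, 3 did (Vdr, Cyp24a1 and Erbb2).

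Among the 28 calcium genes tested, Cyp24a1 was called in all 3 comparisons. Vdr was called in ZF-SGLT2i against each other group. Cyp27b1 was called between ZF and ZL and between ZF-SGLT2i and ZF, but it entered the tests only through its ZF values. Vdr, the vitamin D receptor, was 178, 191, 208 and 127 CPM in ZL rats, 174, 201, 165 and 222 in ZF rats and 339.9, 393, 549 and 367 in the ZF-SGLT2i rats. The ZF-SGLT2i rats were all above both other groups, which overlapped. On the log2 scale, Vdr rose by 1.09 in ZF-SGLT2i over ZF (standard error 0.16, adjusted P = 0.0026 by limma) and by 1.22 over ZL (adjusted P = 0.00019), and differed by 0.13 between ZF and ZL. Cyp24a1, the enzyme that inactivates vitamin D and a known target of its receptor, was 59.9, 34.8, 54.1 and 25.8 CPM in ZL rats, 114, 145, 115 and 59.8 in ZF rats and 483, 392, 575 and 291 in the ZF-SGLT2i rats. It rose on the log2 scale in ZF over ZL by 1.3 (adjusted P = 0.0093 by limma), although ZF rat 5 lay just under the highest ZL rat, and in ZF-SGLT2i over ZF by 2.02 (adjusted P = 0.0023), and by 3.32 over ZL (adjusted P = 8.6e-06). Cyp27b1, the enzyme that activates vitamin D, was near 0, with 2 to 8 reads per ZL rat. Only the ZF rats (1.40 to 2.51 CPM) reached the 1 CPM that the filter asks for. The highest ZL rat was at 0.907 and the highest ZF-SGLT2i rat at 0.892, so the calls of Cyp27b1 are a description only. It was 0.470 ± 0.312 in ZL rats, 1.83 ± 0.497 in ZF rats and 0.520 ± 0.350 CPM in ZF-SGLT2i rats. Its rise in ZF (log2 fold change 0.95, adjusted P = 0.0080) and fall in ZF-SGLT2i rats (−0.91, adjusted P = 0.031) were called by limma, and the second was not called without ZF-SGLT2i rat 2 (0.076), 3 (0.058) or 4 (0.086). With a pseudocount of 0.1 the fall was −1.84 and not called (adjusted P = 0.069), nor was it with a term for the rat number (0.10), and over the alternatives the rise reached 2.02. Pth1r, the receptor of parathyroid hormone, was 302 to 330.1 CPM in ZF rats and 241 to 275 in the ZF-SGLT2i rats, a log2 fold change of −0.32 (adjusted P = 0.0091 by limma).

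The calcium genes called between ZF and ZL also included Trpv6, described above, and Pthlh, Anxa2, Stim1 and Atp2a2. Pthlh, a ligand of Pth1r, was 0.269, 0.173, 0.454 and 0.357 CPM in ZL (2 to 4 reads) and 4.03, 1.50, 2.65 and 3.17 in ZF rats, which differ by 1.51 on the log2 scale with 1 added to each value (adjusted P = 0.0014 by limma). Over the alternatives this difference ran from 1.36 to 3.22. Anxa2, a membrane-binding protein that partners S100a10 (log2 fold change 0.51, adjusted P = 0.0056), and Stim1, the sensor of calcium stores (0.32, adjusted P = 0.010), rose. Atp2a2, the pump that fills those stores, fell by 0.21 on the log2 scale (adjusted P = 0.034), but its change was −0.00 under quantile normalization, and it was not called without ZL rat 1 (0.055) or 4 (0.085) or without ZF rat 3 (0.063), 4 (0.058) or 5 (0.089). Kl, which encodes klotho, a coreceptor for FGF23, was 805 ± 88.0, 826 ± 63.2 and 835 ± 25.1 CPM in ZL, ZF and ZF-SGLT2i rats. Wnk4, a kinase that regulates salt transport in the distal convoluted tubule, was 163 ± 27.9, 184 ± 29.9 and 248 ± 15.4 CPM, and its log2 fold change was 0.45 between ZF-SGLT2i and ZF (adjusted P = 0.075) and 0.61 between ZF-SGLT2i and ZL (adjusted P = 0.0031 by limma). Markers of the distal convoluted tubule had a median of 0.29 and 0.45 in the same comparisons. In all, 6 calcium genes, Cyp27b1 among them, were called higher and 1 lower between ZF and ZL (25%, median 0.06). Of all genes tested, 953 were called higher and 1232 lower there (18.8%). Between ZF-SGLT2i and ZF, 2 calcium genes were called higher and 2, again with Cyp27b1, lower (14.3%, median −0.02), beside 3.15% of all genes tested. Between ZF-SGLT2i and ZL, 6 calcium genes were called higher and 5 lower (39.3%, median 0.12), beside 27.4%.

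Among the 28 magnesium genes tested, 1 was called higher and 4 lower between ZF and ZL (17.9%, median −0.07), beside 18.8% of all genes tested. Fxyd2, the gamma subunit of the sodium pump, mutated in a dominant form of magnesium wasting, was 92.6, 89.9, 83.1 and 93.4 CPM in ZL and 57.0, 64.0, 65.8 and 77.1 in ZF rats, which did not overlap. It fell by 0.45 on the log2 scale (adjusted P = 0.0035 by limma), and the ZF-SGLT2i rats were at 70.4 ± 5.11. Slc41a2, a magnesium transporter of the solute carrier family (log2 fold change −0.98, adjusted P = 0.026), Magt1, also linked to magnesium transport (−0.29, adjusted P = 0.022), and Cldn10 (−0.56, adjusted P = 0.028) fell. Slc41a2 was low, at 9.42, 4.25, 4.76 and 14.7 CPM in ZL and 2.51 to 4.41 in ZF rats. These groups overlapped, as did those of Cldn10 but not those of Magt1. Ptp4a3, a phosphatase that binds Cnnm proteins (0.51, adjusted P = 0.044), rose, also with overlapping groups. Each of these 4 calls was lost in the fit without ZL rat 1 and in the fits without ZF rat 3 or 5, with adjusted P values from 0.056 to 0.098 there. Leaving out ZL rat 4 also ended the calls of Magt1 (0.058), Cldn10 (0.070) and Ptp4a3 (0.053), and leaving out ZL rat 3 those of Cldn10 (0.059) and Ptp4a3 (0.10). Ptp4a3 was further not called without ZF rat 2 (0.12) or ZF-SGLT2i rat 2 (0.056) or 3 (0.058). In ZF-SGLT2i against ZF, 1 of 28 was called (3.57%, median 0.02), beside 3.15% of all genes tested. This was Cldn10, at 40.9 to 61.1 CPM in ZF rats and 25.7 to 35.6 in the ZF-SGLT2i rats (−0.76, adjusted P = 0.022), which was not called without ZF rat 2 (0.069) or 4 (0.072) or without ZF-SGLT2i rat 2 (0.056), 3 (0.063) or 6 (0.074). Slc12a3, the thiazide-sensitive cotransporter that marks the distal convoluted tubule, was 1759 ± 383, 2255 ± 457 and 2989 ± 142 CPM. Its log2 fold changes were 0.36 between ZF and ZL (adjusted P = 0.14), 0.43 between ZF-SGLT2i and ZF (adjusted P = 0.20) and 0.79 between ZF-SGLT2i and ZL (adjusted P = 0.0037). Of the 8 distal convoluted tubule markers, Slc12a3 among them, 8 were higher in ZF-SGLT2i than in ZF rats and 1 was called (Tmem72), with a median of 0.29. Against ZL, 7 were higher, of which 5 were called, and Fxyd2 was called lower, with a median of 0.45. Of all genes tested, 3.15% were called against ZF and 27.4% against ZL. The part of these markers in the values of Slc12a3 and Wnk4 was not tested. Slc41a1, a basolateral magnesium exchanger, was 47.6 ± 10.7, 48.1 ± 2.62 and 50.6 ± 3.45 CPM.

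**Figure D5:**
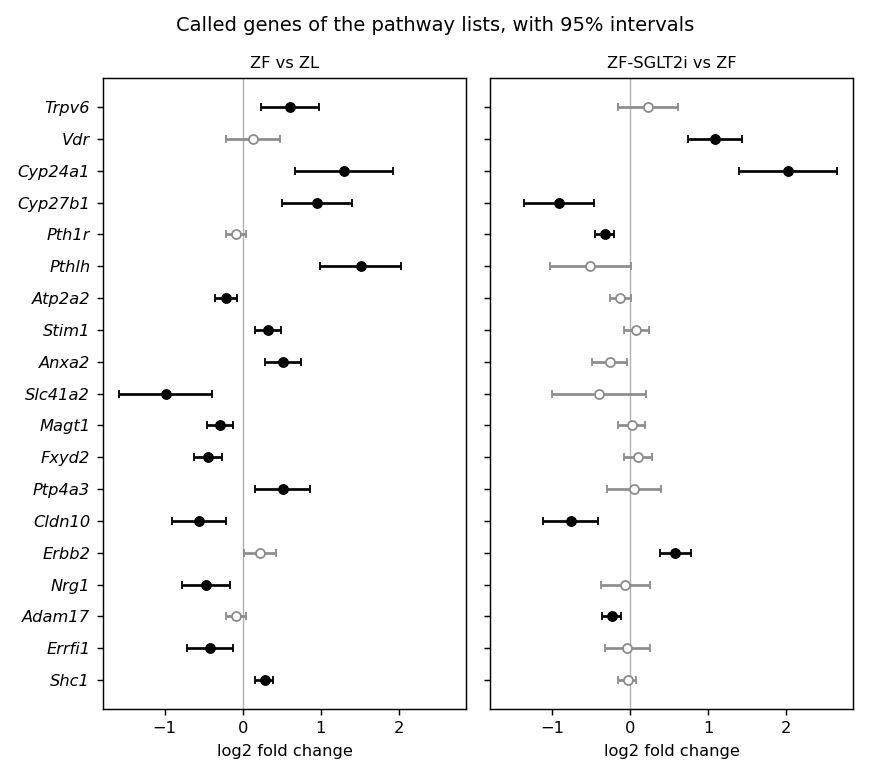
Log2 fold changes on the log2(CPM + 1) scale (x axis) with 95% intervals from limma for the 19 genes of the pathway lists called in either comparison. Filled points passed an adjusted P under 0.05. Cyp24a1 rose in both comparisons and Cldn10 fell in both. Cyp27b1, which passed the filter only through its ZF values, rose in the first and fell in the second.

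In the EGF receptor system, the receptor of Egf was not called between ZF and ZL or between ZF-SGLT2i and ZF. Egfr was 32.0 ± 3.00, 29.3 ± 4.88 and 25.7 ± 1.70 CPM in ZL, ZF and ZF-SGLT2i rats, with log2 fold changes of −0.13 (95% interval −0.37 to 0.10) and −0.17 (95% interval −0.40 to 0.06). Its log2 fold change between ZF-SGLT2i and ZL was −0.31 and was called just under the threshold (adjusted P = 0.05 by limma after rounding). Tgfa, another ligand of the receptor, was 6.91, 5.29, 4.54 and 12.8 CPM in ZL and 3.39 to 4.36 in ZF rats (log2 fold change −0.66, adjusted P = 0.058), and 2.83 to 4.24 in the ZF-SGLT2i rats (−0.88 against ZL, adjusted P = 0.011 by limma). Erbb2, the coreceptor without a ligand of its own, was 116, 115, 96.8 and 103 CPM in ZF rats and 170.4, 151, 170.4 and 151 in the ZF-SGLT2i rats. It rose by 0.58 on the log2 scale between them (adjusted P = 0.0047 by limma), and its difference between ZF and ZL was 0.22 (adjusted P = 0.11). Of 13 genes tested, 3 were called between ZF and ZL (23.1%, median −0.06), beside 18.8% of all genes. Shc1, an adaptor of the receptor, rose (log2 fold change 0.28, adjusted P = 0.0041), and the ligand gene Nrg1 (−0.47, adjusted P = 0.035) and the feedback inhibitor gene Errfi1 (−0.42, adjusted P = 0.043) fell. The falls of Nrg1 and Errfi1 were not called without any one of ZL rats 1, 3 and 4 or of the 4 ZF rats, with adjusted P values up to 0.087 and 0.13, and without ZF-SGLT2i rat 3 that of Errfi1 was not called either (0.057). Under quantile normalization Errfi1 was at −0.23 and not called (adjusted P = 0.29). In ZF-SGLT2i against ZF, 2 were called (15.4%, median −0.03), beside 3.15% of all genes. The second was Adam17, a protease that sheds the ligands, which fell by 0.23 on the log2 scale (adjusted P = 0.046) and was not called in 10 of the 22 alternatives (adjusted P up to 0.14), which included leaving out ZL rat 1, any one ZF rat, or ZF-SGLT2i rat 3, 4 or 6.

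The genes most like Egf over the 12 rats were sought by the root mean square (RMS) difference of log2(CPM + 1), each gene centred on its mean. They were Col4a3, a collagen chain of the glomerular basement membrane (RMS 0.170), Leo1, a subunit of a transcription elongation complex (0.174), Fads1, a fatty acid desaturase (0.174), Abcb10, a mitochondrial transporter (0.179), and Afmid, an enzyme of tryptophan breakdown (0.183). The SD of Egf itself over the 12 rats was 0.43 on this scale. Col4a3 had means of 490.0, 303 and 277 CPM in ZL, ZF and ZF-SGLT2i rats. The genes most like S100g, which had an SD of 0.24, were Phf13 (0.110), Gpcpd1 (0.119), Xrcc6bp1 (0.122), Tfap4 (0.130) and Il34 (0.130).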

How the data were processed

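Total RNA of renal cortex was depleted of ribosomal RNA, and strand-specific libraries were sequenced from both ends. The submitters' processing notes name Trimmomatic 0.38, Bowtie2, RSEM 1.3.0, edgeR and the genome build rn6. The authors deposited 1 table of signal values, 1 column per rat, with 0 columns of other samples. Each value was a whole number of reads (100% of values, tolerance 1e-06) times a constant per rat, equal to edgeR's CPM with TMM factors (largest relative gap 0). RNA integrity per rat, transcript lengths and a rat genome of that build were not used here. The ribosomal RNA genes took 7.25% to 12.0% of the reads of ZL rats, 8.82% to 12.0% of ZF and 11.5% to 15.2% of ZF-SGLT2i reads. No pair of rats of a group was a copy (chi-square per gene 5.43 to 50.1).

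Groups were compared in R 4.3.3 with limma 3.58.1 on log2(value + 1), with 3 groups in 1 fit, the trend option and Benjamini-Hochberg adjustment over the 11633 genes that reached a value of 1 in 4 or more rats. Adding 1 understates fold changes of genes near 1 CPM. All P values are two-sided, and the exact permutation test used 70 assignments. edgeR 4.0.16 and DESeq2 1.42.0 were run on the recovered reads as alternatives. The fits were also run on simulated data, whose outcome is not given here and on which no result rests.

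The genes named are the listed genes, every pathway gene called in ZF vs ZL or ZF-SGLT2i vs ZF, 6 pathway genes called in neither of these and named for their role, and the 5 genes most like Egf and S100g, the listed genes with the largest log2 fold change in each of these comparisons. Marker genes named were chosen after their values were seen. Members and lists were chosen with earlier results of these data known. The pathway lists share genes with the marker lists (Slc12a3, Wnk1, Fxyd2, Cldn10 and others). All 9 genes and all 70 pathway genes in the table matched a RefSeq symbol of GRCr8. Promoters were found for 7 of the 9.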

Additional observations from a re-analysis of the deposited data

Results flagged for a closer look

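Over the 34 genes checked, 102 groups of 4 rats were screened for a rat whose gap to the nearest rat exceeded Dixon's 95% limit for 4 samples. It did in 5 groups, and chance gives about 5.1. Egf was 1735 CPM in ZL rat 4, with the others at 2139 to 2188, and Atp2a2 was 649.7 in the same rat, with the others at 568 to 576. Trpv6 was 2.97 CPM in ZF rat 2 and 2.22 to 2.31 in the other ZF rats, and Kl was 732 in ZF rat 2 and 842 to 865 in the others. Slc41a1 was 45.5 CPM in ZF-SGLT2i rat 6, with the others at 52.0 to 52.8.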

How the results depend on the processing

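The calls of Trpv5 (log2 fold change 0.50 to 0.69 between ZF and ZL, adjusted P 1.7e-05 to 0.043) and Egf (−0.80 to −0.45, adjusted P 1.6e-08 to 0.028) held in all 22 alternatives. No member was called between ZF-SGLT2i and ZF in any of them. S100g could not be tested with a mean of at least 10 CPM. Depth limits S100g, Trpv6, Cyp27b1 and Pthlh, which had few reads per rat. Quantile normalization and median ratios moved the median of all genes to at most 0.014.

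With each rat left out in turn, members called were 2 to 2 between ZF and ZL, 0 to 0 between ZF-SGLT2i and ZF and 2 to 3 between ZF-SGLT2i and ZL. Genes called were 1384 (without ZL rat 1) to 2453, 176 (leaving out ZF-SGLT2i rat 3) to 569 (leaving out ZF rat 5) and 2238 to 3302, and pathway genes called 6 (without ZF rat 5) to 17, 4 to 9 and 24 to 31. Rats of different groups that share a number did not all vary together (correlations of deviations from −0.376 to 0.253). These few correlations cannot show whether a number stands for something shared, and the labels do not give what the numbers mean. With the rat number as a replicate block, genes called were 807, 223 and 1502 and pathway genes called 6, 4 and 17, and the members called remained Trpv5 and Egf. The calls of Stim1 (adjusted P = 0.057) between ZF and ZL and of Pth1r (0.12) between ZF-SGLT2i and ZF were lost with that block alone by limma. That of Cyp27b1 (0.066) between ZF and ZL was too, among the 17 alternatives that could test it. Cyp27b1 failed the filter without any one ZF rat and with a mean of at least 10 CPM. Fitting only the 2 groups compared gave 9 pathway genes between ZF and ZL. Array quality weights gave 689 and DESeq2 641 genes between ZF-SGLT2i and ZF. The cause of these shifts was not tested.

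Among uncalled members, 22 log2 fold changes turned sign and 568 of all members' kept direction and side. Between ZF and ZL, Calb1 was 0.02 with quantile normalization and without ZL rat 2. S100g was −0.09 with quantile normalization and with weights, −0.05 without ZL rat 2 and −0.02 without ZF rat 4. Slc8a1 was −0.04 with the block, −0.02 with weights, −0.12 without ZL rat 4, −0.0038 without ZF rat 3 and −0.07 without ZF rat 5. Trpm7 was −0.0032 with the block and Casr 0.0005 with quantile normalization. Between ZF-SGLT2i and ZF, Trpm7 was 0.01 with the block and without ZF rat 5. Between ZF-SGLT2i and ZL, Trpm7 was −0.03 and Calb1 −0.01 without ZL rat 4, Casr was −0.01 without ZF-SGLT2i rat 4, and Atp2b1 was 0.05 with quantile normalization, 0.01 with the block and without ZF-SGLT2i rat 6, and 0.03 without ZL rat 4. Over the fits that leave out 1 rat, Calb1 ranged from −0.35 to 0.02, S100g from −0.05 to 0.15 and Slc8a1 from −0.12 to 0.19 between ZF and ZL, and Calb1 from −0.01 to 0.35 and Casr from −0.01 to 0.13 between ZF-SGLT2i and ZL. The cause was not tested.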

Other observations

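Some markers of other cortical cells also differed between the groups. Of all genes tested, 18.8% were called between ZF and ZL and 3.15% between ZF-SGLT2i and ZF. Between ZF and ZL, 8 of 10 markers of injured tubule were called higher (median log2 fold change 1.08), and their sum, of which Spp1 made up the largest part, was 529 to 644 CPM in ZL and 867 to 2324 in ZF rats. Of 7 podocyte markers, 4 were called higher (median 0.33), and of 10 proximal tubule markers, 1 was called higher and 1 lower (median −0.17). The medians were 0.31 for endothelial (1 of 7 called), 0.42 for smooth muscle and mesangial (2 of 7), 0.39 for immune (0 of 5 called, 3 at an unadjusted limma P under 0.05) and 0.18 for medulla markers (2 of 4). The shares called of the proximal tubule list (20%) and the endothelial list (14.3%) were near or below that of all genes. Between ZF-SGLT2i and ZF, 8 of 8 intercalated cell markers were higher and 1 was called (median 0.48), and their sum was 1398 to 2111 CPM in ZF, with all ZF-SGLT2i rats above them at 2343 to 2439. Smooth muscle and mesangial markers were lower for 6 of 7, with 2 called lower (median −0.47), and injured tubule markers for 9 of 10, with 1 called lower (median −0.21). The median was −0.14 for proximal tubule (1 of 10 called), −0.01 for podocyte (0 of 7 called, 1 at an unadjusted limma P under 0.05), −0.10 for endothelial (0 of 7 called, 1 at that P), −0.24 for immune (0 of 5 called, 2 at that P) and −0.05 for medulla markers (0 of 4 called, 2 at that P). The median of the intercalated cell list was −0.00 for ZF against ZL. The part of these lists in the changes of Trpv5 and Egf was not tested.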
